A study of Mus musculus with 9 samples.

Results

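The collagen genes were taken as the genes of the count table whose symbol is Col, a number, the letter a and a number, such as Col1a1. Of 24421 listed genes, 44 matched, and 41 of them had 10 or more counts summed over the 9 libraries. Col10a1 had 0 counts, Col9a1 had 1 and Col28a1 had 2 in all, and these were left out. The count filter of the test kept 35 of the 41, among 14513 tested genes. The other 6 (Col4a3, Col4a4, Col6a3, Col6a6, Col15a1 and Col24a1) had totals of 22 to 64 counts and are given as counts.

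RNA sequencing was done on D3 cells, a mouse embryonic stem (ES) cell line, in 3 groups of 3 libraries. The LAMP2A+DM-αKG group stably overexpressed LAMP2A and received 4 mM DM-αKG for 72 h. The LAMP2A group also stably overexpressed LAMP2A and received no DM-αKG. The VT group stably carried the pCDH control vector. All groups grew on gelatin, which is itself denatured collagen, without feeder cells, in serum with leukemia inhibitory factor (ESGRO). LAMP2A, a splice form of LAMP2, is the lysosomal receptor of chaperone-mediated autophagy, and DM-αKG is an ester of α-ketoglutarate that can enter cells. The labels do not say how many clones were used or whether the libraries of a group are separate cultures, so p-values measure the spread between these libraries, which may be technical. They also do not say whether untreated cells received a vehicle.

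Collagens are matrix proteins built of 3 chains wound into a triple helix. Fibrillar collagens form the tensile fibrils of connective tissue, FACIT collagens sit on the surface of fibrils, and type IV collagen forms the sheet-like network of basement membranes. Their chains are hydroxylated by enzymes that use α-ketoglutarate as a cosubstrate, folded with dedicated chaperones, secreted, trimmed and cross-linked. Basement membrane collagens are made early in the embryo, and fibrillar collagens are typical of mesenchymal and skeletal tissues.

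Libraries held 23636074 to 32809875 counts. Lamp2, counted over all splice forms, had 99.3, 95.4 and 96.9 CPM in LAMP2A+DM-αKG, 407, 403 and 403 in LAMP2A, and 57.5, 56.9 and 60.0 in VT (CPM, counts scaled to library size). LAMP2A+DM-αKG cells thus had less Lamp2 than LAMP2A cells, at a log2 fold change of -2.06, besides receiving DM-αKG. The 8 ES cell markers summed to 6169 to 6223 CPM in LAMP2A+DM-αKG, 1735 to 1741 in LAMP2A and 7199.5 to 7622 in VT, and all 8 were lower in LAMP2A than in VT and higher in LAMP2A+DM-αKG than in LAMP2A. The smooth muscle markers summed to 19.0 to 20.9 CPM in LAMP2A+DM-αKG, 2025 to 2064 in LAMP2A and 21.02 to 23.3 in VT, with 6 of 6 higher in LAMP2A than in VT. The parietal endoderm markers summed to 1007 to 1059 CPM in LAMP2A+DM-αKG, 2991 to 3023 in LAMP2A and 746 to 788 in VT, with 9 of 9 higher in LAMP2A than in VT. The fibroblast and feeder markers summed to 27.1 to 29.1 CPM in LAMP2A+DM-αKG, 118 to 125 in LAMP2A and 23.9 to 26.1 in VT, with 6 higher and 1 lower of the 7 tested. On that list, Fap was at 0 in all LAMP2A and VT libraries and Lum in all VT libraries. The simple epithelium markers summed to 307 to 311 CPM in LAMP2A+DM-αKG, 1459 to 1477 in LAMP2A and 279 to 289.6 in VT, with 4 of 5 higher. The cartilage markers summed to 16.8 to 18.2 CPM in LAMP2A+DM-αKG, 36.1 to 37.1 in LAMP2A and 17.5 to 19.3 in VT, with 4 higher and 2 lower of 6. The endothelium markers summed to 76.5 to 78.9 CPM in LAMP2A+DM-αKG, 32.8 to 35.9 in LAMP2A and 90.8 to 94.7 in VT, with 2 higher and 3 lower of 5. Set against LAMP2A, LAMP2A+DM-αKG had 6 of 6 tested smooth muscle, 9 of 9 parietal endoderm, 7 of 7 fibroblast and 5 of 5 simple epithelium markers lower, 3 cartilage markers were lower and 2 higher, and 2 endothelium markers were lower and 2 higher. These counts stand beside 43.0% and 42.1% of all tested genes higher and lower in LAMP2A against VT, and 41.1% and 42.1% in LAMP2A+DM-αKG against LAMP2A. The count filter of the test was passed through LAMP2A only by 4 of the fibroblast markers (Dcn, Postn, Prrx1 and Twist2), 3 of the smooth muscle markers (Acta2, Myh11 and Myocd) and 2 of the cartilage markers (Hapln1 and Sox9), which favors a difference for these. Of the markers that reached its cutoff in all groups, 3 of the fibroblast list had 2 higher and 1 lower in LAMP2A against VT and 0 higher and 3 lower in LAMP2A+DM-αKG against LAMP2A, 2 of the smooth muscle list 2 higher and 0 lower, then 0 higher and 2 lower, and 3 of the cartilage list 1 higher and 2 lower, then 2 higher and 1 lower. The part of Lamp2 and of these markers in the collagen values was not tested. In bulk libraries, fewer cells of a type and less RNA per cell cannot be told apart.

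Replicate 1 of LAMP2A+DM-αKG stood apart from the other libraries of its group for 4 collagens. Col3a1 had 42 counts there, against 2 and 1 in replicates 2 and 3. Col1a2 had 16 counts there, against 1 and 0 in replicates 2 and 3, Col5a2 had 14 counts there, against 1 and 1 in replicates 2 and 3, and Col6a1 had 13 counts there, against 1 and 2 in replicates 2 and 3. In that library 19 genes with 10 or more counts were at least 5-fold above both other libraries of the group, where each of the other libraries of the study had 0 to 4 such genes. They included genes of liver plasma proteins (Alb with 70 counts against 4 and 10, C3 with 46 counts against 6 and 8, Fgb with 27 counts against 3 and 3) and of macrophages (Chil3 with 64 counts against 0 and 1, Lyz2 with 15 counts against 2 and 1). Their part in the collagen values was not tested, and results for the 4 collagens are given with and without that library.

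**Figure D1:**
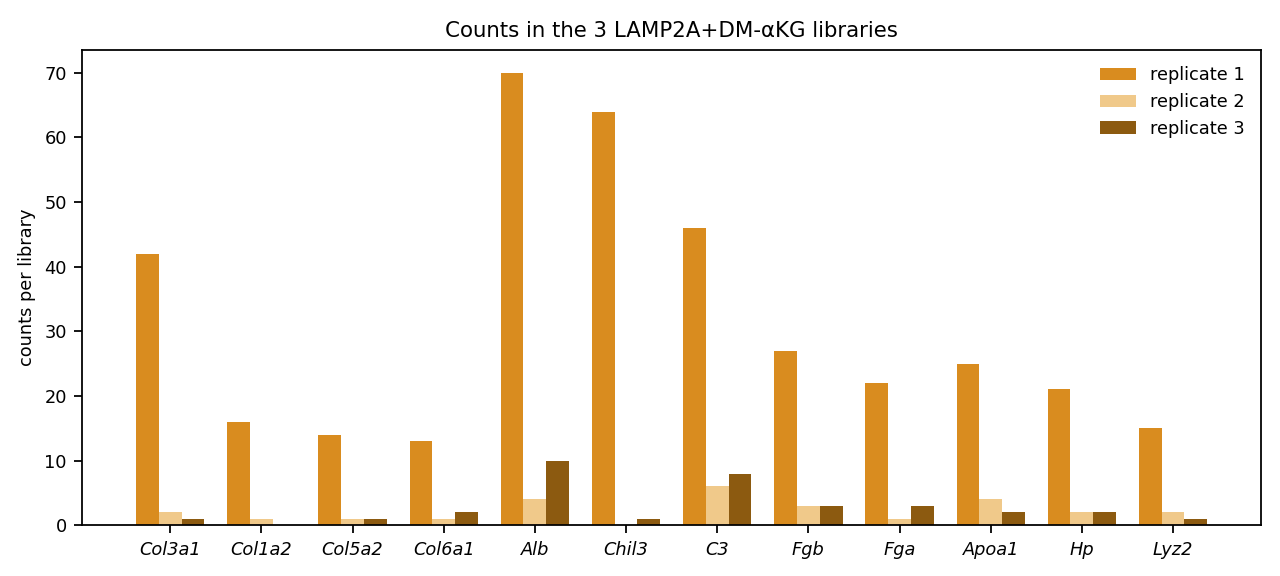
Counts per library (y axis, linear) of 4 collagen genes and 8 other genes (x axis) in the 3 LAMP2A+DM-αKG libraries, 1 bar for each replicate. Replicate 1 has the tallest bar for every gene shown, with 42 counts against 2 and 1 for Col3a1 and 70 against 4 and 10 for Alb.

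Most collagen genes were higher in LAMP2A cells than in VT cells and lower in LAMP2A+DM-αKG cells than in LAMP2A cells. All collagen genes together had 764 ± 8.04 CPM in LAMP2A+DM-αKG, 3589 ± 42.8 in LAMP2A and 519 ± 10.7 in VT (SD, n = 3 each), with no overlap between groups. The summed level was 6.92 times as high in LAMP2A as in VT and 1.47 times as high in LAMP2A+DM-αKG as in VT. In LAMP2A against VT, 30 of the 35 tested collagens were higher and 5 lower at an adjusted p under 0.05 (quasi-likelihood test of edgeR, adjusted over all tested genes). Of all tested genes 85.1% passed, 43.0% higher and 42.1% lower. With a change of at least 2-fold, 28 collagens were higher and 2 lower (4 lower without replicate 3 of LAMP2A, where 36 collagens were tested), beside 19.8% and 9.61% of all genes.

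For LAMP2A+DM-αKG against LAMP2A, 29 collagens were lower, 4 higher and 2 not called. Of all tested genes 83.2% passed, 42.1% lower and 41.1% higher. With at least 2-fold, 27 collagens were lower and 3 higher, beside 17.6% and 8.06% of all genes. The median log2 fold change of the tested collagens was 2.77 in LAMP2A against VT and -2.76 in LAMP2A+DM-αKG against LAMP2A, beside 0.0081 and -0.0012 for all genes. The LAMP2A libraries are shared by both comparisons. The count filter asks for about 0.371 CPM. LAMP2A was the only group with every library over this cutoff for 13 of the 35, which favors a difference for these. Of the 20 that reached the cutoff in every library of all groups, 16 were higher and 4 lower in LAMP2A against VT (median 1.70). In LAMP2A+DM-αKG against LAMP2A, 15 of these 20 were lower, 3 higher and 2 not called (median -1.50).

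With LAMP2A+DM-αKG set against VT, 13 collagens were higher, 6 lower and 16 not called. Of the 20 that reached the cutoff of the count filter in all groups, 12 were higher, 4 lower and 4 not called. Of all tested genes 58.7% passed, 29.3% higher and 29.3% lower. With at least 2-fold, 8 collagens were higher and 3 lower, beside 3.93% and 2.63% of all genes. The median log2 fold change of the collagens was 0.40. Without replicate 1 of LAMP2A+DM-αKG, 12 were higher and 7 lower.

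**Figure D2:**
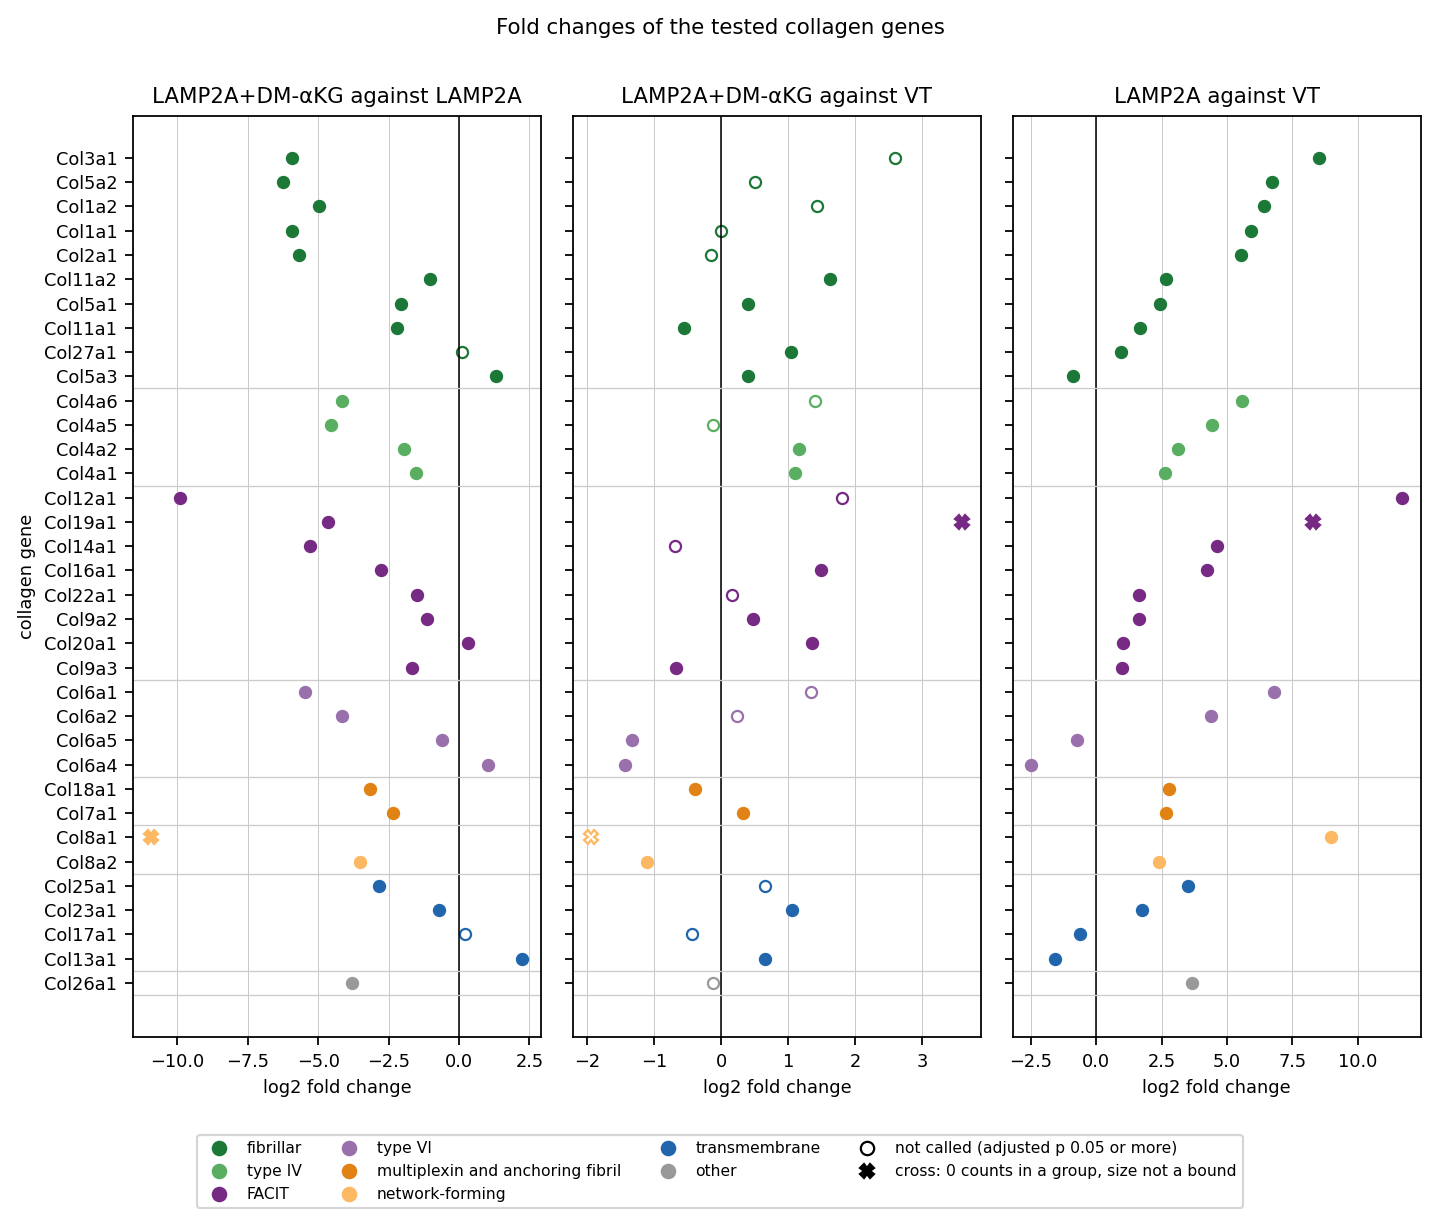
Log2 fold change (x axis, with its own range in each panel) of the 35 tested collagens, by structural type down the page, in LAMP2A+DM-αKG against LAMP2A, LAMP2A+DM-αKG against VT and LAMP2A against VT. Filled symbols passed the test, open ones did not, and crosses mark genes with 0 counts in a group. Against most collagens, Col5a3, Col6a4, Col13a1 and Col20a1 were higher in LAMP2A+DM-αKG than in LAMP2A, and Col5a3, Col6a4, Col6a5, Col13a1 and Col17a1 were lower in LAMP2A than in VT.

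Promoter stretches are shown for 4 collagens that moved in opposite directions. Col3a1 and Col8a1 were higher in LAMP2A than in VT and lower in LAMP2A+DM-αKG than in LAMP2A, and Col5a3 and Col13a1 were the reverse in both. Each stretch holds the 250 bases before the start site in RefSeq (GRCm38.p6), 5′ to 3′ on the strand of the gene. They lie at chr1:45311288-45311537 on the plus strand (Col3a1) and, on the minus strand, at chr16:57754738-57754987 (Col8a1), chr9:20815068-20815317 (Col5a3) and chr10:61979109-61979358 (Col13a1). Capitals mark motif matches.
Col3a1: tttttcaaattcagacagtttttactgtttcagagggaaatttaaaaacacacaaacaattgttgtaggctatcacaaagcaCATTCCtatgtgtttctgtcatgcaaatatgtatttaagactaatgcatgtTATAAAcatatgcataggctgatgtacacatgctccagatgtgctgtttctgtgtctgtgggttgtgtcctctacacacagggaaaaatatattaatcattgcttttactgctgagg
Col8a1: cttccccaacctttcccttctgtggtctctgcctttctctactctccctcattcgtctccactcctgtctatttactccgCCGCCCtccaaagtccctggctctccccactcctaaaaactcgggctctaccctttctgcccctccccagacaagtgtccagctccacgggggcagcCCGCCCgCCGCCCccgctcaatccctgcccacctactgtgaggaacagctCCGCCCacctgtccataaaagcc
Col5a3: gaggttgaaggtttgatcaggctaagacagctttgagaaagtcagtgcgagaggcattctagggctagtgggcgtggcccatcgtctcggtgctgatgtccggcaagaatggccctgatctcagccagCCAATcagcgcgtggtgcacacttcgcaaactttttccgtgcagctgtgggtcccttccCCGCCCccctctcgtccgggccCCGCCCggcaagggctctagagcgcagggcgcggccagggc
Col13a1: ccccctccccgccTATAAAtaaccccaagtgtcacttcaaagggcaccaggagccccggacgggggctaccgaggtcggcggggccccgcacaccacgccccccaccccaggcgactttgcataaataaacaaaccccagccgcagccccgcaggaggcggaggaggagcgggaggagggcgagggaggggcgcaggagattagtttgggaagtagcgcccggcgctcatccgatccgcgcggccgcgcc
The motifs searched, on both strands, were the TATA box (TATAAA), the CCAAT box (CCAAT), the GC box of SP1 (GGGCGG) and the TEAD motif (GGAATG), none of which contains another. The Col3a1 stretch had a TATA match and a TEAD match and 35.2% G and C. Col8a1 had GC box matches and 60.8% G and C. Col5a3 had a CCAAT match and GC box matches and 62.8%, and Col13a1 had a TATA match and 68.8%. Neither TATA match lay close to the start, and that of Col13a1 lay farther from it than that of Col3a1. Of the 41 collagens, 32 had RefSeq windows of 300 bases (250 before and 50 after the start), 34 windows in all. GGGCGG was in 23 of them (67.6%, against 35.7% of all 32851 windows), CCAAT in 12 (35.3% against 37.4%), TATAAA in 4 (11.8% against 13.6%) and GGAATG in 5 (14.7% against 14.7%). The windows of Col4a1 and Col4a2 overlap, and Col6a2 and Col18a1 have more than 1 window each. The G and C share of all windows was not measured, and its part in the GGGCGG share was not tested. Col1a1, Col2a1, Col4a3, Col5a2, Col9a3, Col12a1, Col14a1, Col22a1 and Col26a1 had no window. A match is a run of letters and does not show that a factor binds there.

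Col4a1 and Col4a2 were higher in LAMP2A than in VT, lower in LAMP2A+DM-αKG than in LAMP2A, and above VT in LAMP2A+DM-αKG. The other 2 tested type IV collagens, Col4a5 and Col4a6, had the same calls in the comparisons with LAMP2A. LAMP2A was the only group with every library over the cutoff of the count filter for them, which favors a difference. Of all tested genes, 43.0% were higher in LAMP2A against VT and 42.1% lower in LAMP2A+DM-αKG against LAMP2A. Col4a1 and Col4a2 encode the chains of the trimer found in nearly all basement membranes. Col4a1 had 345, 342 and 347 CPM in LAMP2A+DM-αKG, 977, 980.1 and 995 in LAMP2A, and 166, 156 and 162 in VT. Col4a2 had 150.5, 147 and 155 CPM in LAMP2A+DM-αKG, 579, 587 and 595 in LAMP2A, and 68.0, 68.6 and 65.3 in VT. The groups did not overlap for either gene, and LAMP2A+DM-αKG lay between LAMP2A and VT. In LAMP2A against VT, Col4a1 was higher by 2.61 on the log2 scale (SE 0.0311, edgeR adjusted p 4.11e-38) and Col4a2 by 3.12 (SE 0.0328, adjusted p 1.2e-39). In LAMP2A+DM-αKG against LAMP2A the log2 fold changes were -1.51 for Col4a1 and -1.96 for Col4a2. For LAMP2A+DM-αKG against VT they were 1.10 (adjusted p 2.42e-25), which is 2.14-fold, and 1.17 (adjusted p 5.6e-25), which is 2.24-fold.

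The pair lies head to head on chromosome 8 of mm10 (GENCODE M21 annotation), Col4a1 at 11198423 to 11312826 on the minus strand and Col4a2 at 11312805 to 11449287 on the plus strand, with starts 21 bases apart. Per kilobase of transcript, the level of Col4a1 relative to Col4a2 was 2.23 ± 0.0384 in LAMP2A+DM-αKG, 1.64 ± 0.00859 in LAMP2A and 2.33 ± 0.105 in VT (SD, n = 3 each). LAMP2A libraries were below all others in this ratio. An exact two-sided permutation test gave p = 0.1 for LAMP2A+DM-αKG against LAMP2A and for LAMP2A against VT, the smallest p that 3 against 3 allows (0.125 adjusted over 15 tests of ratios and shares). LAMP2A+DM-αKG and VT overlapped (exact permutation p = 0.3).

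The other type IV chains were far lower per kilobase. Col4a5 is a chain of kidney and smooth muscle basement membranes. It had 0.589, 0.231 and 0.299 CPM in LAMP2A+DM-αKG, 8.51, 8.54 and 8.70 in LAMP2A, and 0.494, 0.518 and 0.186 in VT. It changed on the log2 scale by 4.42 in LAMP2A against VT and -4.54 in LAMP2A+DM-αKG against LAMP2A, and LAMP2A+DM-αKG and VT overlapped (adjusted p 0.808). Col4a6, head to head with Col4a5 on chromosome X, had 6 counts in LAMP2A+DM-αKG, 130 in LAMP2A and 2 in VT over 3 libraries each. The ratio of LAMP2A to VT was 55.4 (95% counting interval 15.0 to 462), and the log2 fold change in LAMP2A+DM-αKG against LAMP2A was -4.16 (-5.14 without replicate 1 and -3.50 without replicate 3 of LAMP2A+DM-αKG). Col4a3 and Col4a4, chains of the glomerular basement membrane, were not tested. Col4a3 had 0 counts in LAMP2A+DM-αKG, 23 in LAMP2A and 0 in VT, and Col4a4 had 2 counts in LAMP2A+DM-αKG, 23 in LAMP2A and 1 in VT. With a floor of 3 counts over a group, Col4a3 was 6.66-fold lower in LAMP2A+DM-αKG than in LAMP2A (95% counting interval of the ratio 0 to 0.200). It was 6.53-fold higher in LAMP2A than in VT (95% counting interval from 4.90).

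Of the 10 tested fibrillar collagens, 9 were higher in LAMP2A than in VT and 8 lower in LAMP2A+DM-αKG than in LAMP2A, beside 43.0% higher and 42.1% lower of all tested genes. Col1a2, Col3a1 and Col5a2 passed the count filter through LAMP2A only, which favors a difference. Of the other 7 the test called 6 higher and 1 lower in LAMP2A against VT and 1 higher and 5 lower in LAMP2A+DM-αKG against LAMP2A. Col1a1 and Col1a2 encode type I collagen, the main collagen of bone, skin and tendon. Col1a1 had 1.47, 0.732 and 0.765 CPM in LAMP2A+DM-αKG, 58.8, 60.3 and 58.3 in LAMP2A, and 0.864, 0.887 and 1.15 in VT. LAMP2A libraries stood far above the rest, and LAMP2A+DM-αKG and VT overlapped. The ratio of LAMP2A to VT was 60.9 (95% counting interval 48.6 to 77.5). The log2 fold change of Col1a1 was 5.92 in LAMP2A against VT (edgeR adjusted p 2.24e-34), -5.93 in LAMP2A+DM-αKG against LAMP2A (adjusted p 2.26e-34) and -0.01 in LAMP2A+DM-αKG against VT (adjusted p 0.98). Col1a2 had 0.673, 0.0385 and 0 CPM in LAMP2A+DM-αKG, 7.81, 6.21 and 6.57 in LAMP2A, and 0.0411, 0.0370 and 0.149 in VT. It had a log2 fold change of 6.41 in LAMP2A against VT, or 7.31 without replicate 3 of VT. It was -4.99 in LAMP2A+DM-αKG against LAMP2A, or -8.27 without replicate 1 and -4.31 without replicate 3 of LAMP2A+DM-αKG. With LAMP2A+DM-αKG set against VT it was 1.42 and not called (adjusted p 0.431), or -1.86 without replicate 1 of LAMP2A+DM-αKG (adjusted p 0.222).

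Col3a1 is the fibrillar collagen of extensible tissues such as vessel walls. It had 1.77, 0.0770 and 0.0333 CPM in LAMP2A+DM-αKG, 35.9, 34.0 and 34.4 in LAMP2A, and 0, 0.148 and 0.112 in VT. The LAMP2A libraries were above all others, and LAMP2A+DM-αKG and VT overlapped. The log2 fold change was 8.53 in LAMP2A against VT (SE 0.573, edgeR adjusted p 6.68e-06) and -5.93 in LAMP2A+DM-αKG against LAMP2A, or -9.23 without replicate 1 and -5.29 without replicate 3 of LAMP2A+DM-αKG. In LAMP2A+DM-αKG against VT it was 2.60 and not called (adjusted p 0.26), passed without robust estimation of the spread (adjusted p 0.0219), and was -0.69 without replicate 1 (adjusted p 0.548). Col3a1 (45311538 to 45349706, plus strand) and Col5a2 (45374321 to 45503282, minus strand) lie tail to tail on chromosome 1, 24614 bases apart.

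Type V collagen starts fibrils and sets their width. Col5a1 had 37.8, 37.4 and 38.0 CPM in LAMP2A+DM-αKG, 155, 152 and 161 in LAMP2A, and 30.1, 28.1 and 27.7 in VT, the highest level of the fibrillar collagens per kilobase in each group. Col5a2, its usual partner, had 0.589, 0.0385 and 0.0333 CPM in LAMP2A+DM-αKG, 14.8, 16.0 and 15.6 in LAMP2A, and 0.165, 0.185 and 0.0744 in VT. Col5a1 was higher in LAMP2A than in VT by 2.45 and Col5a2 by 6.74. For LAMP2A+DM-αKG against LAMP2A the log2 fold changes were -2.05 and, for Col5a2, -6.24, or -8.59 without replicate 1 of LAMP2A+DM-αKG. With LAMP2A+DM-αKG set against VT, Col5a1 was higher by 0.40 (edgeR adjusted p 3.44e-09). Col5a2 was not called there, at 0.50 (adjusted p 0.623), or -1.85 without replicate 1 (adjusted p 0.0716).

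Col5a3, another chain of type V, went the other way. It had 15.4, 15.7 and 16.2 CPM in LAMP2A+DM-αKG, 6.48, 6.06 and 6.61 in LAMP2A, and 11.9, 11.5 and 12.3 in VT. LAMP2A was lowest and LAMP2A+DM-αKG highest, with no overlap between groups. Its log2 fold change was -0.90 in LAMP2A against VT (SE 0.0743, edgeR adjusted p 2.32e-13), 1.31 in LAMP2A+DM-αKG against LAMP2A (adjusted p 1.71e-18) and 0.40 in LAMP2A+DM-αKG against VT (adjusted p 1.65e-06). Per kilobase, its level in LAMP2A was 1.04 CPM beside 18.5 for Col5a1 and 2.34 for Col5a2, and in VT it was 1.95 beside 3.40 and 0.0213 CPM.

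Col2a1 is the main collagen of cartilage. It had 1.56, 1.00 and 1.66 CPM in LAMP2A+DM-αKG, 70.4, 70.4 and 75.8 in LAMP2A, and 1.65, 1.81 and 1.26 in VT. The log2 fold change was 5.51 in LAMP2A against VT and -5.67 in LAMP2A+DM-αKG against LAMP2A, and LAMP2A+DM-αKG and VT overlapped (adjusted p 0.534). Type XI collagen shapes the fibrils that Col2a1 forms. Col11a1 had 5.13, 5.47 and 4.89 CPM in LAMP2A+DM-αKG, 24.96, 23.3 and 23.4 in LAMP2A, and 7.82, 6.84 and 8.22 in VT. Col11a2 had 3.24, 2.77 and 3.23 CPM in LAMP2A+DM-αKG, 6.35, 6.09 and 6.54 in LAMP2A, and 0.782, 1.04 and 1.15 in VT. Both were higher in LAMP2A than in VT, by 1.65 and 2.66, and lower in LAMP2A+DM-αKG than in LAMP2A, but in LAMP2A+DM-αKG Col11a1 was below VT at a log2 fold change of -0.56 (edgeR adjusted p 4.46e-06) and Col11a2 above it by 1.62 (adjusted p 4.44e-10). The level of Col11a1 relative to Col11a2 per kilobase was 1.19 ± 0.173 in LAMP2A+DM-αKG, 2.66 ± 0.128 in LAMP2A and 5.57 ± 1.28 in VT (SD, n = 3 each), with no overlap between groups (exact permutation p = 0.1 for each pair, the smallest possible).

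Col27a1, a fibrillar collagen of developing cartilage, was not called different between LAMP2A+DM-αKG and LAMP2A. It had 5.38, 5.01 and 5.85 CPM in LAMP2A+DM-αKG, 4.93, 5.41 and 4.71 in LAMP2A, and 2.59, 2.699 and 2.64 in VT. It was higher than VT in LAMP2A+DM-αKG by 1.04 (edgeR adjusted p 2.2e-09) and in LAMP2A by 0.93 (adjusted p 5.15e-09), and LAMP2A+DM-αKG and LAMP2A overlapped (adjusted p 0.277). Col24a1 had 2 counts in LAMP2A+DM-αKG, 17 in LAMP2A and 3 in VT and was not tested.

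**Figure D3:**
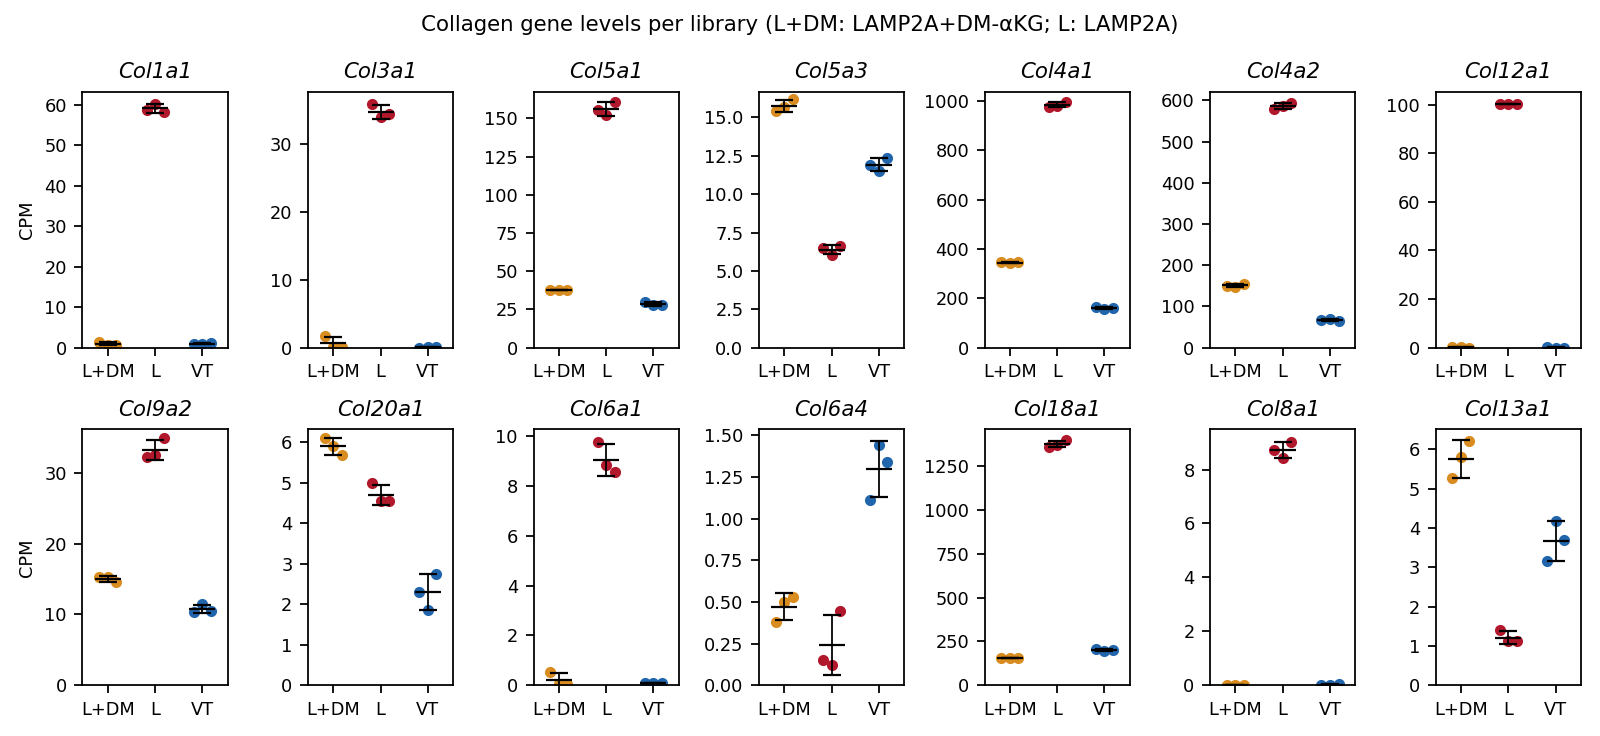
CPM (y axis, linear, from 0, with its own range for each gene) of 14 collagens per library, in LAMP2A+DM-αKG (L+DM), LAMP2A (L) and VT from left to right. Points are libraries, and bars give the mean and SD (n = 3). LAMP2A has the highest mean for 10 of the 14, and the others are Col5a3, Col6a4, Col13a1 and Col20a1.

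The 8 FACIT collagens were higher in LAMP2A than in VT, and 7 were lower in LAMP2A+DM-αKG than in LAMP2A, beside 43.0% higher and 42.1% lower of all tested genes. Col12a1, Col14a1 and Col19a1 passed the count filter through LAMP2A only, which favors a difference. Of the other 5, the test called 5 higher and 0 lower in LAMP2A against VT and 1 higher and 4 lower in LAMP2A+DM-αKG against LAMP2A. Col12a1 coats type I fibrils in tendon and other dense tissue. It had 0.210, 0.0770 and 0.0333 CPM in LAMP2A+DM-αKG, 100.2, 100.1 and 100.1 in LAMP2A, and 0.0823, 0 and 0 in VT. LAMP2A libraries held 9200 counts and VT libraries 2, a ratio of 3918 (95% counting interval 1084 to 32360). LAMP2A+DM-αKG libraries held 8 counts, a ratio to LAMP2A of 0.001001 (95% counting interval 0.000432 to 0.001973). In LAMP2A+DM-αKG against LAMP2A the log2 fold change was -9.90 (edgeR adjusted p 7.36e-38), and -10.75 without replicate 1 of LAMP2A+DM-αKG. For LAMP2A+DM-αKG against VT it was not called (adjusted p 0.0993), except without replicate 1 of VT, where VT was left with 0 counts (adjusted p 0.0124), or replicate 3 of LAMP2A+DM-αKG (log2 2.27, adjusted p 0.042).

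Col14a1 also binds fibrils. It had 0.168, 0.193 and 0.200 CPM in LAMP2A+DM-αKG, 6.78, 8.85 and 7.10 in LAMP2A, and 0.370, 0.222 and 0.335 in VT. Its log2 fold change was 4.61 in LAMP2A against VT and -5.30 in LAMP2A+DM-αKG against LAMP2A, and LAMP2A+DM-αKG against VT was not called (adjusted p 0.223). Col16a1 had 2.02, 2.31 and 1.56 CPM in LAMP2A+DM-αKG, 13.4, 12.8 and 13.4 in LAMP2A, and 0.658, 0.813 and 0.595 in VT. It was above VT by 4.25 in LAMP2A and still by 1.49 in LAMP2A+DM-αKG (edgeR adjusted p 2.82e-07), with no overlap between groups. Col19a1 had 4 counts in LAMP2A+DM-αKG, 127 in LAMP2A and 0 in VT. With a floor of 3 counts over a group, it was 36.1-fold higher in LAMP2A than in VT (95% counting interval from 28.9). In LAMP2A+DM-αKG it was 1.31-fold higher than in VT (95% counting interval from 0.647, which includes no change). The last call (adjusted p 0.0423) was lost without replicate 1, 2 or 3 of VT (adjusted p 0.0807, 0.0893 and 0.0889), without replicate 1 or 2 of LAMP2A+DM-αKG (0.0566 and 0.112), with DESeq2 (0.0806) and with no count filter (0.05).

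Type IX collagen decorates the type II fibrils of cartilage. Col9a2 had 15.3, 15.3 and 14.5 CPM in LAMP2A+DM-αKG, 32.2, 32.6 and 34.9 in LAMP2A, and 10.3, 11.4 and 10.5 in VT, the highest level of the FACIT collagens per kilobase in each group. Col9a3 had 0.968, 1.19 and 1.30 CPM in LAMP2A+DM-αKG, 3.86, 3.88 and 3.21 in LAMP2A, and 1.89, 2.11 and 1.60 in VT. They were higher in LAMP2A than in VT by 1.62 and 0.98 and lower in LAMP2A+DM-αKG than in LAMP2A. With LAMP2A+DM-αKG set against VT, Col9a2 was higher by 0.48 (edgeR adjusted p 2.68e-07) and Col9a3 lower at a log2 fold change of -0.68 (adjusted p 0.00266). Exons of Col9a3 overlap those of Tcfl5 on the other strand over 234 bases and the strand setting of the counting is not given, so the Col9a3 values are uncertain.

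Col20a1 was the FACIT collagen that stood higher in LAMP2A+DM-αKG than in LAMP2A. It had 6.10, 5.89 and 5.69 CPM in LAMP2A+DM-αKG, 4.99, 4.54 and 4.56 in LAMP2A, and 2.30, 1.85 and 2.75 in VT. The log2 fold change was 0.32 in LAMP2A+DM-αKG against LAMP2A (edgeR adjusted p 0.00395), 1.35 in LAMP2A+DM-αKG against VT and 1.03 in LAMP2A against VT, and no groups overlapped. Col22a1 belongs to tissue junctions such as that of muscle and tendon. It had 1.26, 1.08 and 1.26 CPM in LAMP2A+DM-αKG, 3.74, 3.29 and 3.02 in LAMP2A, and 1.52, 0.924 and 0.818 in VT, a log2 fold change of 1.65 in LAMP2A against VT and -1.48 in LAMP2A+DM-αKG against LAMP2A, and LAMP2A+DM-αKG and VT overlapped (adjusted p 0.559).

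Type VI collagen forms beaded filaments near cells, and its genes split. Col6a1 and Col6a2 encode the chains that all its trimers share. Both passed the count filter through LAMP2A only, and Col6a4 through VT and LAMP2A+DM-αKG, which favors a difference for these. Of the tested type VI genes, only Col6a5 reached the cutoff in all groups. It was called lower in LAMP2A than in VT and lower in LAMP2A+DM-αKG than in LAMP2A. Col6a1 had 0.547, 0.0385 and 0.0665 CPM in LAMP2A+DM-αKG, 9.79, 8.85 and 8.55 in LAMP2A, and 0.0823, 0.0740 and 0.0744 in VT. Col6a2 had 0.505, 0.308 and 0.299 CPM in LAMP2A+DM-αKG, 6.78, 5.75 and 7.21 in LAMP2A, and 0.329, 0.296 and 0.298 in VT. For Col6a1 the ratio of LAMP2A to VT was 119 (95% counting interval 54.3 to 324). The log2 fold change in LAMP2A against VT was 6.81 for Col6a1 (edgeR adjusted p 1.14e-17) and 4.40 for Col6a2 (adjusted p 3.24e-21). In LAMP2A+DM-αKG against LAMP2A it was -5.47 for Col6a1, or -7.29 without replicate 1 of LAMP2A+DM-αKG, and -4.15 for Col6a2. For LAMP2A+DM-αKG against VT neither was called. Col6a1 was at 1.34 there (adjusted p 0.154), at -0.48 without replicate 1 of LAMP2A+DM-αKG (adjusted p 0.689), and passed without replicate 2 (log2 1.80, adjusted p 0.0362) or 3 (log2 1.82, adjusted p 0.0449) of LAMP2A+DM-αKG.

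The remaining chain of the type VI trimer comes from Col6a3 or, in some tissues, Col6a4, Col6a5 or Col6a6. Col6a3 had 7 counts in LAMP2A+DM-αKG, 22 in LAMP2A and 4 in VT and was not tested, where Col6a1 had 836 counts and Col6a2 601 in LAMP2A. Col6a4 had 0.379, 0.501 and 0.532 CPM in LAMP2A+DM-αKG, 0.152, 0.124 and 0.448 in LAMP2A, and 1.11, 1.44 and 1.34 in VT. Col6a5 had 0.631, 0.732 and 0.632 CPM in LAMP2A+DM-αKG, 0.760, 0.901 and 1.42 in LAMP2A, and 1.89, 1.70 and 1.49 in VT. VT libraries were the highest for both genes. Against VT, Col6a4 was at a log2 fold change of -1.44 in LAMP2A+DM-αKG and -2.49 in LAMP2A (-3.19 without replicate 3 of LAMP2A), and Col6a5 at -1.34 in LAMP2A+DM-αKG and -0.75 in LAMP2A, all called lower. Col6a6 had 23 counts in LAMP2A+DM-αKG, 12 in LAMP2A and 26 in VT and was not tested. Col6a4, Col6a5 and Col6a6 lie one after the other on the minus strand of chromosome 9.

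These low genes gave calls in LAMP2A+DM-αKG against LAMP2A that rested on single libraries. Col6a4 was higher in LAMP2A+DM-αKG by 1.04 with overlapping libraries (edgeR adjusted p 0.0171), or 1.75 without replicate 3 of LAMP2A. The call was lost without replicate 1 or 2 of LAMP2A (adjusted p 0.0905 and 0.111) or replicate 3 of LAMP2A+DM-αKG (adjusted p 0.0678). Col6a5 was lower in LAMP2A+DM-αKG at a log2 fold change of -0.59 (adjusted p 0.0331). That call was lost without replicate 3 of LAMP2A (log2 -0.32, adjusted p 0.279), without replicate 1 or 3 of LAMP2A+DM-αKG (adjusted p 0.0749 and 0.0934) and with DESeq2 (adjusted p 0.064).

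Col18a1 had the highest level of all collagens per kilobase in LAMP2A and VT. It encodes a heparan sulfate collagen of basement membranes whose released end is endostatin, and it lies on the minus strand of chromosome 10 at 77052178 to 77166548. It had 153, 153 and 154 CPM in LAMP2A+DM-αKG, 1362, 1372 and 1399 in LAMP2A, and 207, 197 and 201 in VT. Its log2 fold change was 2.77 in LAMP2A against VT (SE 0.0308, edgeR adjusted p 5.89e-39) and -3.17 in LAMP2A+DM-αKG against LAMP2A (adjusted p 2.88e-40). In LAMP2A+DM-αKG it was below VT at a log2 fold change of -0.39 (SE 0.0309, adjusted p 5.45e-13) with no overlap, where Col4a1 and Col4a2 were above. Per kilobase, the level of Col18a1 was 27.4 CPM in LAMP2A+DM-αKG, 246 in LAMP2A and 36.0 in VT, and that of Col4a1 was 52.1 CPM in LAMP2A+DM-αKG, 149 in LAMP2A and 24.3 in VT.

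Col7a1 forms the anchoring fibrils under the epidermis. It had 6.77, 7.36 and 8.12 CPM in LAMP2A+DM-αKG, 37.3, 37.9 and 38.4 in LAMP2A, and 6.34, 5.99 and 5.65 in VT. The log2 fold change was 2.66 in LAMP2A against VT, -2.34 in LAMP2A+DM-αKG against LAMP2A and 0.32 in LAMP2A+DM-αKG against VT (edgeR adjusted p 0.00264). Col15a1, the other multiplexin beside Col18a1, had 18 counts in LAMP2A+DM-αKG, 31 in LAMP2A and 15 in VT and was not tested.

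Type VIII collagen forms the network of the corneal Descemet's membrane and is made by vascular cells. Of its genes, Col8a1 passed the count filter through LAMP2A only and Col8a2 through LAMP2A and VT, which favors a difference. Col8a1 had 0 counts in LAMP2A+DM-αKG, 800 in LAMP2A and 1 in VT over 3 libraries each. With a floor of 3 counts over a group it was 232-fold lower in LAMP2A+DM-αKG than in LAMP2A (95% counting interval of the ratio 0 to 0.00532). The ratio of LAMP2A to VT was 681 (95% counting interval 122 to 26950). Col8a2 had 0.505, 0.424 and 0.333 CPM in LAMP2A+DM-αKG, 4.74, 4.94 and 4.67 in LAMP2A, and 0.987, 0.850 and 0.855 in VT. It was higher in LAMP2A than in VT by 2.41, and in LAMP2A+DM-αKG it was below VT at a log2 fold change of -1.10 (edgeR adjusted p 0.000833).

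Transmembrane collagens stay attached to the cell, and their 4 genes did not move together. Col13a1 is found at the neuromuscular junction and other adhesion sites. It had 5.26, 5.82 and 6.22 CPM in LAMP2A+DM-αKG, 1.40, 1.12 and 1.12 in LAMP2A, and 3.17, 4.18 and 3.68 in VT, with LAMP2A lowest, LAMP2A+DM-αKG highest and no overlap. Its log2 fold change was -1.59 in LAMP2A against VT (SE 0.156, edgeR adjusted p 1.86e-11), 2.25 in LAMP2A+DM-αKG against LAMP2A (adjusted p 1.22e-16) and 0.65 in LAMP2A+DM-αKG against VT (adjusted p 7.52e-06). Col17a1 is a hemidesmosome collagen of epithelia. It had 1.09, 0.616 and 0.832 CPM in LAMP2A+DM-αKG, 0.608, 0.901 and 0.672 in LAMP2A, and 1.23, 0.961 and 1.23 in VT. It was lower in LAMP2A than in VT at a log2 fold change of -0.64 (adjusted p 0.0139), a call lost without replicate 1 of LAMP2A (adjusted p 0.0729), without replicate 3 of VT (0.0514) and with DESeq2 (0.0567). With LAMP2A+DM-αKG set against VT it was not called (adjusted p 0.116), except without replicate 1 of LAMP2A+DM-αKG (log2 -0.63, adjusted p 0.0463).

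Col23a1 had 0.926, 1.19 and 1.36 CPM in LAMP2A+DM-αKG, 1.67, 1.62 and 2.54 in LAMP2A, and 0.576, 0.592 and 0.521 in VT. It was above VT by 1.06 in LAMP2A+DM-αKG and by 1.75 in LAMP2A. Col25a1, a neuronal transmembrane collagen, had 0.0841, 0.231 and 0.166 CPM in LAMP2A+DM-αKG, 1.52, 1.18 and 0.822 in LAMP2A, and 0.0411, 0.0740 and 0.186 in VT. It had a log2 fold change of 3.49 in LAMP2A against VT (4.25 without replicate 3 of VT) and -2.84 in LAMP2A+DM-αKG against LAMP2A. Col25a1, like Col26a1 below, passed the count filter through LAMP2A only, which favors a difference. Col26a1, outside the other types, had 0.210, 0.193 and 0.133 CPM in LAMP2A+DM-αKG, 2.43, 2.55 and 2.46 in LAMP2A, and 0.123, 0.222 and 0.223 in VT, with log2 fold changes of 3.66 in LAMP2A against VT and -3.79 in LAMP2A+DM-αKG against LAMP2A.

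Type IV collagens took a larger share of the collagen counts in LAMP2A+DM-αKG than in the other groups, and Col18a1 a smaller one. Col18a1, Col4a1 and Col4a2 together took 84.95% of collagen counts in LAMP2A+DM-αKG, 82.2% in LAMP2A and 82.9% in VT. Type IV collagens took 64.9 ± 0.242% in LAMP2A+DM-αKG, 44.1 ± 0.100% in LAMP2A and 44.1 ± 0.0551% in VT (SD, n = 3 each), and LAMP2A and VT overlapped. Col4a1 alone took 45.1% in LAMP2A+DM-αKG, 27.4% in LAMP2A and 31.1% in VT, and Col18a1 took 20.1% in LAMP2A+DM-αKG, 38.4% in LAMP2A and 38.9% in VT. Transmembrane collagens took 1.04 ± 0.0769% in LAMP2A+DM-αKG, 0.141 ± 0.00564% in LAMP2A and 1.06 ± 0.100% in VT, and their summed level was 7.93 ± 0.614 CPM in LAMP2A+DM-αKG, 5.06 ± 0.210 in LAMP2A and 5.48 ± 0.410 in VT. Where groups did not overlap in the share of type IV, multiplexin and anchoring fibril, or transmembrane collagens, the exact permutation p was 0.1, the smallest possible (0.125 adjusted).

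The summed levels of fibrillar, FACIT and type VI collagens were highest in LAMP2A. Fibrillar collagens summed to 70.6 ± 2.41 CPM in LAMP2A+DM-αKG, 386 ± 6.61 in LAMP2A and 54.7 ± 1.38 in VT. FACIT collagens summed to 25.6 ± 0.863 CPM in LAMP2A+DM-αKG, 167 ± 0.340 in LAMP2A and 17.0 ± 0.393 in VT. Type VI collagens summed to 2.12 ± 0.460 CPM in LAMP2A+DM-αKG, 17.3 ± 1.16 in LAMP2A and 3.76 ± 0.267 in VT, lowest in LAMP2A+DM-αKG.

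**Figure D4:**
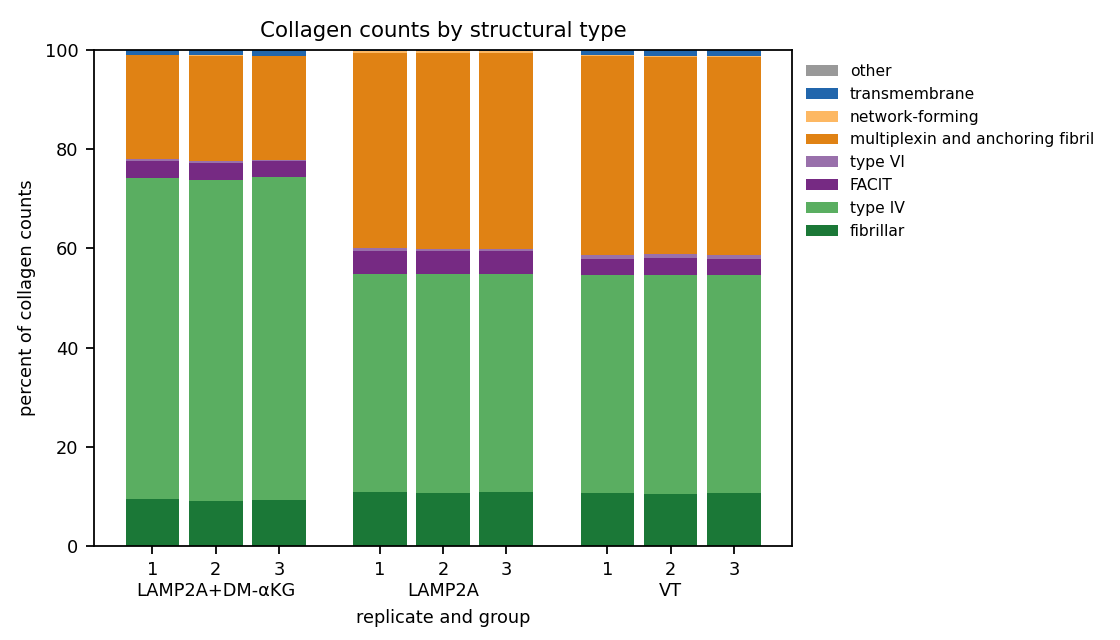
Percent of all collagen counts (y axis, stacked to 100) taken by each structural type in each of the 9 libraries (x axis). Type IV takes a mean of 64.9% in LAMP2A+DM-αKG, 44.1% in LAMP2A and 44.1% in VT.

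Most genes that modify, fold and export procollagen were also higher in LAMP2A. Of 19 tested, 16 were higher and 2 lower in LAMP2A against VT, beside 43.0% and 42.1% of all tested genes. Against LAMP2A, in LAMP2A+DM-αKG 2 were higher and 13 lower, beside 41.1% and 42.1%, and in LAMP2A+DM-αKG against VT 14 were higher and 1 lower, beside 29.3% and 29.3%. For Colgalt2, P3h2 and P4ha3, LAMP2A was the only group with every library over the cutoff of the count filter. Of the 16 genes that reached its cutoff in all groups, the test called 13 higher and 2 lower in LAMP2A against VT, 2 higher and 10 lower in LAMP2A+DM-αKG against LAMP2A and 12 higher and 1 lower in LAMP2A+DM-αKG against VT. Serpinh1, the collagen chaperone HSP47, had 202 ± 4.92 CPM in LAMP2A+DM-αKG, 1623 ± 18.4 in LAMP2A and 176 ± 3.17 in VT (SD, n = 3 each). It had a log2 fold change of 3.21 in LAMP2A against VT and -3.00 in LAMP2A+DM-αKG against LAMP2A. Fkbp10, another procollagen chaperone, was at 2.22 and -2.11 in these comparisons. P3h4, a partner of lysyl hydroxylase, was at 2.35 and -1.97, and the prolyl 3-hydroxylase P3h2 at 6.70 and -5.57.

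The prolyl 4-hydroxylase genes were above VT in LAMP2A+DM-αKG, and their levels relative to LAMP2A differed. P4ha1, a catalytic subunit, had 54.2 ± 1.91 CPM in LAMP2A+DM-αKG, 81.1 ± 0.395 in LAMP2A and 26.7 ± 1.01 in VT. P4ha2, another catalytic subunit, had 54.6 ± 2.06 CPM in LAMP2A+DM-αKG, 53.1 ± 2.02 in LAMP2A and 16.2 ± 0.646 in VT. P4ha2 was above VT by 1.75 in LAMP2A+DM-αKG (edgeR adjusted p 6e-25) and by 1.71 in LAMP2A, and LAMP2A+DM-αKG and LAMP2A were not called different (log2 0.04, adjusted p 0.367). P4ha3, a further catalytic subunit, had 0.472 ± 0.113 CPM in LAMP2A+DM-αKG, 10.2 ± 0.0912 in LAMP2A and 0.104 ± 0.0522 in VT. It was lower in LAMP2A+DM-αKG than in LAMP2A at a log2 fold change of -4.41 (adjusted p 8.44e-25), where P4ha1 was at -0.58, and above VT by 2.17 in LAMP2A+DM-αKG (adjusted p 0.000116). In LAMP2A+DM-αKG against VT, P4ha1 was higher by 1.02, the lysyl hydroxylase Plod2 by 0.71 and P4hb, the shared subunit, by 0.43. Against the list, Tmem38b, an ion channel of the endoplasmic reticulum, and Colgalt1, which adds galactose to collagen, were lower in LAMP2A than in VT, at log2 fold changes of -1.01 and -0.13, and higher in LAMP2A+DM-αKG than in LAMP2A, by 0.84 and 0.36. Tmem38b was also the gene of the list below VT in LAMP2A+DM-αKG, at a log2 fold change of -0.17.

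Of 12 tested genes for processing and cross-linking, 9 were higher and 3 lower in LAMP2A against VT, beside 43.0% and 42.1% of all tested genes. Compared with LAMP2A, in LAMP2A+DM-αKG 3 were higher and 9 lower, beside 41.1% and 42.1%, and in LAMP2A+DM-αKG against VT 4 were higher and 4 lower, beside 29.3% and 29.3%. The shares in the last comparison are near those of all genes. Lox passed the count filter through LAMP2A only. Of the 11 genes that reached its cutoff in all groups, the test called 8 higher and 3 lower in LAMP2A against VT, 3 higher and 8 lower in LAMP2A+DM-αKG against LAMP2A and 4 higher and 4 lower in LAMP2A+DM-αKG against VT. Bmp1, which cuts off the C-terminal propeptide, had 6.93 ± 0.199 CPM in LAMP2A+DM-αKG, 80.3 ± 1.65 in LAMP2A and 5.17 ± 0.594 in VT. Its enhancer Pcolce went the other way and had 209.8 ± 6.51 CPM in LAMP2A+DM-αKG, 86.7 ± 1.82 in LAMP2A and 239.8 ± 9.43 in VT. Pcolce2, a second enhancer, had 20.95 ± 1.61 CPM in LAMP2A+DM-αKG, 4.02 ± 0.152 in LAMP2A and 28.4 ± 2.14 in VT. Adamts14, which trims the N-terminal propeptide, was likewise lower in LAMP2A than in VT, at a log2 fold change of -1.10, and higher in LAMP2A+DM-αKG than in LAMP2A, by 1.31. Among the cross-linking enzymes of the lysyl oxidase family, Loxl1 was at 3.02 in LAMP2A against VT and -2.85 in LAMP2A+DM-αKG against LAMP2A. Loxl2 had 97.4 ± 1.15 CPM in LAMP2A+DM-αKG, 149 ± 1.28 in LAMP2A and 34.3 ± 2.75 in VT, and in LAMP2A+DM-αKG it was above VT by 1.51 (edgeR adjusted p 2.39e-25). Adamts3 was below VT in LAMP2A+DM-αKG at a log2 fold change of -1.05.

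Of 6 tested collagen receptors, 4 were higher and 1 lower in LAMP2A against VT, beside 43.0% and 42.1% of all tested genes. When LAMP2A+DM-αKG was set against LAMP2A, 2 were higher and 4 lower, beside 41.1% and 42.1%, and in LAMP2A+DM-αKG against VT 2 were higher and 0 lower, beside 29.3% and 29.3%. The share higher in LAMP2A+DM-αKG against LAMP2A and against VT is near that of all genes. Itga11 passed the count filter through LAMP2A only. Of the 4 genes that reached its cutoff in all groups, the test called 3 higher and 0 lower in LAMP2A against VT, 1 higher and 3 lower in LAMP2A+DM-αKG against LAMP2A and 2 higher and 0 lower in LAMP2A+DM-αKG against VT. Itgb1, the subunit shared by all collagen-binding integrins, had 228 ± 5.52 CPM in LAMP2A+DM-αKG, 799.6 ± 3.49 in LAMP2A and 195 ± 6.61 in VT. The receptor kinases split. Ddr1 had 18.6 ± 0.509 CPM in LAMP2A+DM-αKG, 93.9 ± 2.90 in LAMP2A and 18.7 ± 0.599 in VT, and Ddr2 had 0.722 ± 0.108 CPM in LAMP2A+DM-αKG, 0.198 ± 0.0230 in LAMP2A and 0.910 ± 0.0701 in VT. Ddr2 was the receptor that was lower in LAMP2A than in VT, at a log2 fold change of -2.19 (edgeR adjusted p 1.14e-07). It passed the count filter through VT and LAMP2A+DM-αKG and was under its cutoff in LAMP2A, which favors a difference. The integrin subunit genes Itga1 and Itga11 were higher in LAMP2A than in VT, by 2.29 and 5.13. Itga10 was higher in LAMP2A+DM-αKG than in LAMP2A by 0.40 and than in VT by 0.53.

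Of 9 tested genes for collagen breakdown, 9 were higher and 0 lower in LAMP2A against VT, beside 43.0% and 42.1% of all tested genes. Between LAMP2A+DM-αKG and LAMP2A, in LAMP2A+DM-αKG 0 were higher and 8 lower, beside 41.1% and 42.1%, and in LAMP2A+DM-αKG against VT 4 were higher and 2 lower, beside 29.3% and 29.3%. Ctsk and Mmp16 passed the count filter through LAMP2A only. Of the 7 genes that reached its cutoff in all groups, the test called 7 higher and 0 lower in LAMP2A against VT, 0 higher and 7 lower in LAMP2A+DM-αKG against LAMP2A and 4 higher and 2 lower in LAMP2A+DM-αKG against VT. Mrc2, which takes up collagen fragments, had 4.25 ± 0.777 CPM in LAMP2A+DM-αKG, 128 ± 1.84 in LAMP2A and 1.43 ± 0.213 in VT. The gelatinase Mmp9 had 0.699 ± 0.210 CPM in LAMP2A+DM-αKG, 53.5 ± 1.62 in LAMP2A and 1.56 ± 0.201 in VT. For LAMP2A+DM-αKG against VT these ended on opposite sides, Mrc2 higher by 1.56 and Mmp9 lower at a log2 fold change of -1.12. The lysosomal protease Ctsl was higher in LAMP2A than in VT by 1.38, and the membrane-bound collagenase Mmp14 by 1.42. With LAMP2A+DM-αKG set against VT, Mmp2 was higher by 0.83, Ctsb by 0.21, and Mmp15 was lower at a log2 fold change of -0.42.

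Of 8 tested partners of collagen in the matrix, 6 were higher and 0 lower in LAMP2A against VT, beside 43.0% and 42.1% of all tested genes. Relative to LAMP2A, in LAMP2A+DM-αKG 2 were higher and 5 lower, beside 41.1% and 42.1%, and in LAMP2A+DM-αKG against VT 7 were higher and 0 lower, beside 29.3% and 29.3%. Dcn passed the count filter through LAMP2A only. Of the 6 genes that reached its cutoff in all groups, the test called 4 higher and 0 lower in LAMP2A against VT, 2 higher and 3 lower in LAMP2A+DM-αKG against LAMP2A and 6 higher and 0 lower in LAMP2A+DM-αKG against VT. Bgn, a fibril-binding proteoglycan, had 1.36 ± 0.669 CPM in LAMP2A+DM-αKG, 54.2 ± 1.12 in LAMP2A and 0.268 ± 0.0936 in VT. Dcn, another, which is also on the fibroblast list, had 6 counts in LAMP2A+DM-αKG, 640 in LAMP2A and 1 in VT, and the ratio of LAMP2A to VT was 545 (95% counting interval 97.5 to 21560). Sparc, which binds collagen and is also on the parietal endoderm list, had 346 ± 8.84 CPM in LAMP2A+DM-αKG, 1251 ± 12.1 in LAMP2A and 286 ± 6.20 in VT. Nid1, which ties laminin to type IV collagen, had 358 ± 5.12 CPM in LAMP2A+DM-αKG, 270.0 ± 1.48 in LAMP2A and 261 ± 10.9 in VT. Nid1 and Tnxb, a tenascin that binds fibrils, were higher in LAMP2A+DM-αKG than in LAMP2A, by 0.41 and 1.17, and than in VT, by 0.46 and 1.16. Nid2 was above VT by 0.33 in LAMP2A+DM-αKG and by 0.32 in LAMP2A.

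**Figure D5:**
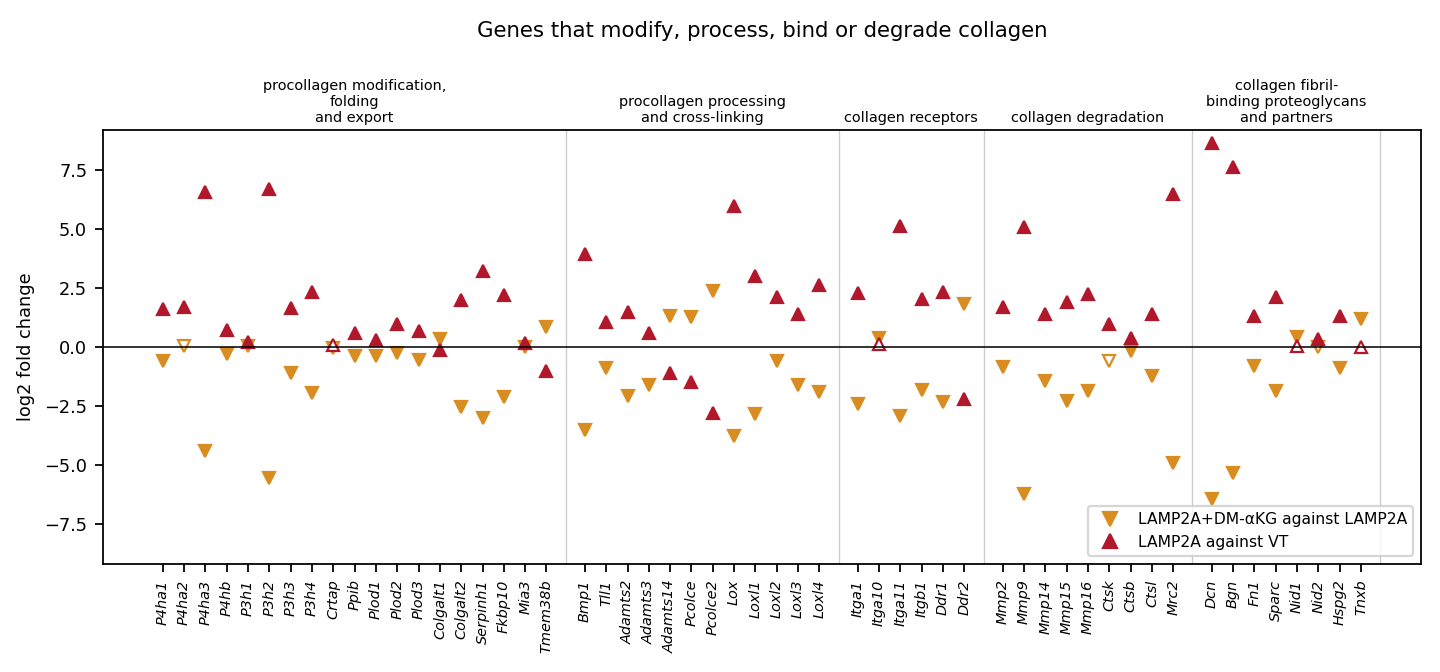
Log2 fold change (y axis) of the tested genes that modify, process, bind or break down collagen (x axis, by list), with LAMP2A+DM-αKG against LAMP2A as downward triangles and LAMP2A against VT as upward triangles. Open symbols did not pass the test. Most genes are above 0 in LAMP2A against VT and below 0 in LAMP2A+DM-αKG against LAMP2A, and Pcolce, Pcolce2, Adamts14, Ddr2, Tmem38b and Colgalt1 are the reverse.

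The authors' deposited table for LAMP2A+DM-αKG against LAMP2A listed 41 collagens and called 3 higher and 31 lower at an adjusted p under 0.05. It gave the same call as the edgeR test for 33 of 35, and Col6a4 and Col6a5 were not called there. The authors' deposited table for LAMP2A against VT called 33 higher and 4 lower, with the same call for 34 of 35, and Col17a1 was not called there.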

How the data were processed

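RNA from 9 libraries of D3 cells was prepared with a stranded TruSeq mRNA kit, per the labels' protocols. Per the submitters' processing notes, the tools were STAR 2.7.1, HTSeq 0.11.2 and DESeq2, and the build was mm10. Which annotation and strand option the counting used is not given in the sources used here. The authors deposited whole-number counts per gene. Their deposited tables for LAMP2A+DM-αKG against LAMP2A and for LAMP2A against VT hold, per the file headers, log2 fold changes, p-values, a test statistic (a score) and mean normalized counts (a signal), of which only calls of collagen genes were used.

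Counts were tested with the quasi-likelihood test of edgeR 4.0.16 (R 4.3.3, TMM scaling, filterByExpr, robust estimation), in 1 fit of all 9 libraries with 6 residual degrees of freedom, and p-values were adjusted by Benjamini-Hochberg over 14513 genes. The fit was also run on simulated counts, in which far fewer genes changed than were called here. That run does not give the error rate in these data. CPM values use TMM-scaled library sizes. Each standard error is the absolute log2 fold change divided by the root of the F statistic. Levels per kilobase use the GENCODE M21 transcript with the longest coding sequence. Counting intervals (95%) and the floor of 3 counts over a group cover counting error only. Exact permutation tests (scipy 1.17.1, Python 3.11.15) compared the ratios of Col4a1 to Col4a2 and of Col11a1 to Col11a2. They also compared the shares of type IV, multiplexin and anchoring fibril, and transmembrane collagens. Ratios and sums by type were planned as descriptions, so these tests were added, and other ratios and shares were not tested. Figures were drawn with matplotlib 3.10.9. Alternatives were DESeq2 1.42.0 and its size factors, no count filter, no robust estimation, a fit of only the groups compared, a replicate block and leaving out each library.

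All collagens were accounted for. Values per library were set to be given for the highest members of each type, the largest changes, members that moved against the majority and their partner chains, and were given for most others too. Of the other lists, the genes with the smallest p and those against the majority were named. The collagens and the lists were chosen with earlier results of these data known. Counts limited to genes that reached the cutoff of the count filter in every library of all groups were added after the data were seen.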

Additional observations from a re-analysis of the deposited data

How the results depend on the processing

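Of 1247 alternative values of single collagens, 1208 kept direction and call, 17 lost the call, 6 gained it and 16 changed sign. The sign changes were all among genes not called in LAMP2A+DM-αKG against VT when 1 library was left out, and the cause was not tested. Col8a1 there had 0 counts in both groups without replicate 3 of VT and gave no value. With 1 library left out, the log2 fold change there lay between -0.37 and 0.16 for Col1a1, -1.86 and 2.33 for Col1a2, -0.31 and 0.040 for Col2a1, -0.69 and 3.24 for Col3a1, -0.56 and 0.13 for Col4a5, -1.85 and 1.08 for Col5a2, -0.48 and 1.82 for Col6a1, -0.014 and 0.39 for Col6a2, -0.0058 and 0.46 for Col22a1, and -0.33 and 0.068 for Col26a1. Over all alternatives, the number of collagens higher in LAMP2A than in VT was 30 to 34, and the number lower was 4 to 6. In LAMP2A+DM-αKG against LAMP2A it was 3 to 5 higher and 28 to 32 lower, and in LAMP2A+DM-αKG against VT 12 to 15 higher and 6 to 7 lower. At least 2-fold lower in LAMP2A than in VT were 2 to 4 collagens with 1 library left out, with 4 without replicate 3 of LAMP2A, where 36 collagens were tested and not 35. The summed FACIT level in LAMP2A was 168.1 CPM with DESeq2 size factors and 167.2 CPM with TMM, a shift above the SD of 0.34. Without the count filter 16647 genes were tested. Over 3 scalings the median log2 fold change of all genes lay between -0.0098 and 0.020. Deviations of libraries with the same replicate number correlated between -0.024 and 0.018, so the numbers were not taken as pairs. With the replicate block, the counts of called collagens stayed at 30 higher and 5 lower in LAMP2A against VT, 4 and 29 in LAMP2A+DM-αKG against LAMP2A, and 13 and 6 in LAMP2A+DM-αKG against VT. Depth limits the collagens with a few counts in a group, such as Col8a1, Col12a1 and Col19a1, whose ratios span wide intervals.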
